A study of Mus musculus with 13 samples.

Results

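Expression of 9 genes for the homing and egress of thymocytes was followed in mouse thymic lymphomas and normal thymus by RNA sequencing. The genes were taken by symbol from the 43629 genes of the table, and all 9 were found: the transcription factor gene Klf2, the egress receptor gene S1pr1, the chemokine receptor genes Ccr7, Ccr9, Ccr4 and Cxcr4, and the integrin genes Itga4, Itgb7 and Itgae. They were named for their roles in the migration of thymocytes. All 9 passed the filter on low values and stood among the 15872 genes tested.

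The 13 libraries were polyA RNA from single-cell suspensions, each from a different mouse. There were 5 thymic lymphomas of Atm-/- mice, which lack the DNA damage kinase ATM, on the 129S6/SvEv strain. There were 5 thymic lymphomas of Rag2c/c p53-/- mice, whose RAG2 protein is truncated at its C terminus and which lack p53, on a mixed background of C57BL/6 and 129S6/SvEv. The controls were 3 wild type (WT) thymuses of C57BL/6 mice, re-used from another series. Their titles and tissue entries say WT and thymus, while their source entry names a lymphoma of the thymus; they were taken as WT thymus. Ages and sexes are not given in the sources used here. Strain, series of origin and group cannot be told apart in this design, and both lymphoma groups were compared with the same 3 WT libraries. Replicate numbers below only name the libraries.

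Values are normalized counts, that is, reads per gene divided by a size factor of the library and rounded to whole numbers. Column totals lay between 19788898 and 21591289. The spacing of the low values gave the worth of 1 read in 6 libraries, between 1.47 and 3.38 normalized counts, which corresponds to 6.36 to 13.7 M reads. The shallowest were replicate 2 of the Rag2c/c p53-/- lymphomas, at 6.36 M reads, and replicate 2 of WT thymus, at 6.68 M reads. In the other 7 libraries the worth of a read was too close to 1 to be resolved, and each held at least 18.8 M reads.

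As background, progenitors settle in the thymus and thymocytes move between cortex and medulla along chemokine gradients, with CXCR4 and CCR9 prominent in the cortex and CCR7 and CCR4 on cells on their way into the medulla. Mature thymocytes leave through S1PR1, which senses the high sphingosine 1-phosphate of the blood and whose gene is induced by KLF2, while surface CD69 holds the receptor inside the cell. The integrin chains encoded by Itga4, Itgb7 and Itgae combine into heterodimers that bind VCAM-1 and fibronectin, MAdCAM-1 or E-cadherin and take part in adhesion to stroma and epithelium.

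In the Atm-/- lymphomas, 5 of the 9 genes were called lower than in WT thymus, against 17% of all genes tested. These were S1pr1, Ccr7, Ccr4, Itga4 and Itgae. In the Rag2c/c p53-/- lymphomas, 6 of the 9 were called lower, against 13.9% of all genes tested: S1pr1, Ccr7, Ccr9, Itga4, Itgb7 and Itgae. None of the 9 was called higher by limma in either lymphoma group, where 12.6% of all genes were called higher in the Atm-/- lymphomas and 9.77% in the Rag2c/c p53-/- lymphomas. At an unadjusted p under 0.05, 1 gene, Cxcr4, was higher in each. Calls required an adjusted p under 0.05, a log2 fold change of 1 or more in either direction, and a mean that reached 10 in 1 or both groups. The median log2 fold change of the 9 genes was -1.66 in the Atm-/- and -2.18 in the Rag2c/c p53-/- lymphomas, where the medians of all genes tested were -0.02 and -0.02. The material is bulk RNA, so fewer cells of a type and less RNA per cell cannot be told apart.

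**Figure D1:**
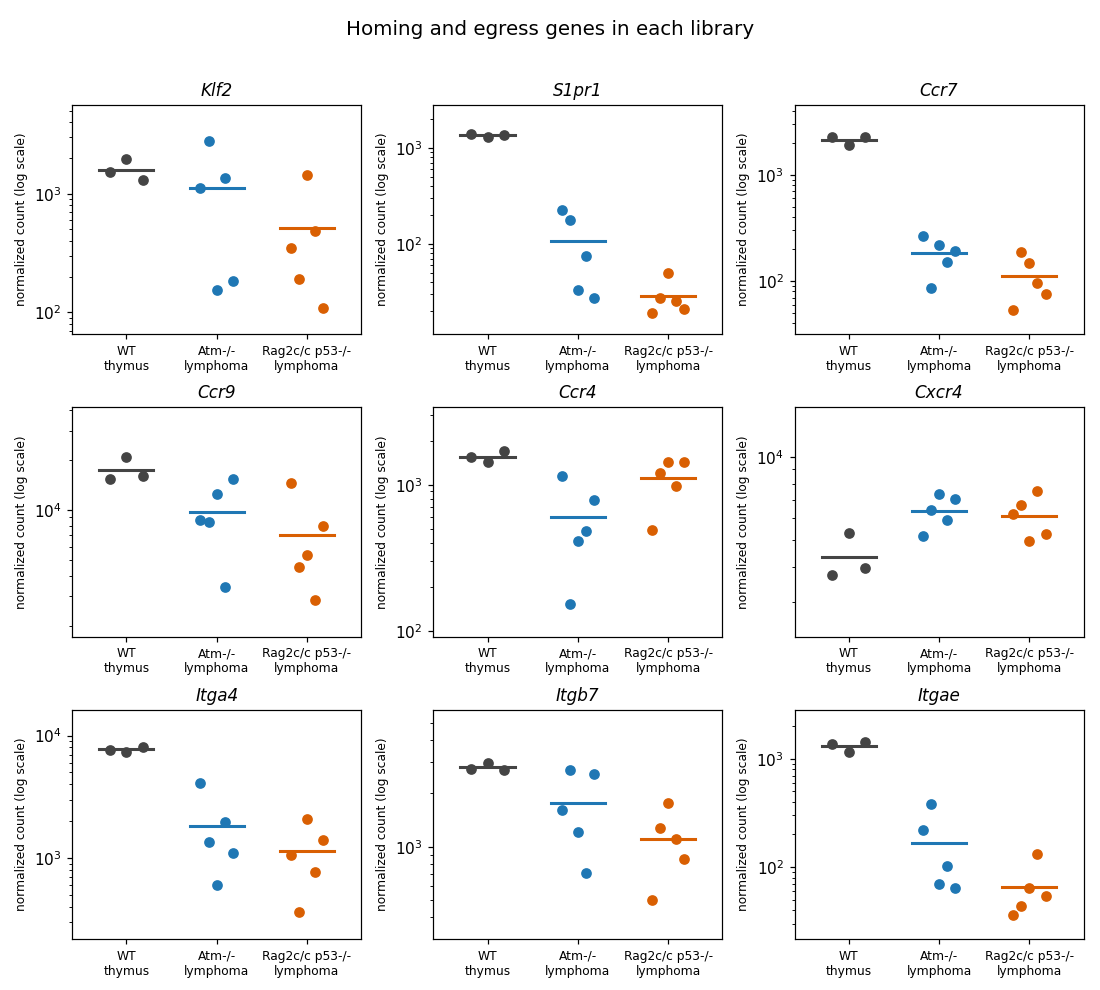
Normalized counts (log scale) of the 9 genes in each of 13 libraries, with 1 point per library and a bar at the mean of the 3 WT thymuses, 5 Atm-/- lymphomas and 5 Rag2c/c p53-/- lymphomas. S1pr1 lies between 1286 and 1406 in WT thymus and at or below 226 in each lymphoma, while Klf2 spans 109 to 2816 among the lymphomas.

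S1pr1 (ENSMUSG00000045092, chr3:115710433-115715055, build GRCm38), the receptor through which mature thymocytes exit, read 1406, 1286 and 1361 normalized counts in WT replicates 1 to 3. In the Atm-/- lymphomas it read 226, 178, 33, 75 and 27, and in the Rag2c/c p53-/- lymphomas 19, 27, 49, 25 and 21. Every lymphoma lay below every WT thymus, and the highest lymphoma value, in Atm-/- replicate 1, was far under the lowest WT value. The mean was 1351 ± 60.6 in WT thymus (SD, n = 3), 108 ± 89.6 in the Atm-/- lymphomas (n = 5) and 28.2 ± 12.1 in the Rag2c/c p53-/- lymphomas (n = 5). The log2 fold change was -4.11 in the Atm-/- lymphomas (SE 0.62, limma adjusted p = 0.000205) and -5.61 in the Rag2c/c p53-/- lymphomas (SE 0.62, adjusted p = 3.64e-05). Values this low rest on few reads in the shallow libraries: the 27 normalized counts of Rag2c/c p53-/- replicate 2 stand for about 8 reads, and the 1286 of WT replicate 2 for about 398.

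Klf2 (ENSMUSG00000055148, chr8:72319033-72321656), the factor known to induce S1pr1 in maturing thymocytes, differed most among the lymphomas themselves. It read 1529, 1956 and 1307 in WT thymus, 1121, 2816, 154, 1356 and 184 in the Atm-/- lymphomas, and 351, 189, 1451, 481 and 109 in the Rag2c/c p53-/- lymphomas. Atm-/- replicates 1, 2 and 4 and Rag2c/c p53-/- replicate 3 lay near or above the WT values, and the other lymphomas lay well below them, so both lymphoma groups overlapped with WT thymus. The highest lymphoma exceeded the lowest 18.3-fold among the Atm-/- and 13.3-fold among the Rag2c/c p53-/- lymphomas, against 1.5-fold among the WT thymuses. Klf2 was not called: the log2 fold change was -1.26 (95% interval -3.27 to 0.75, limma adjusted p = 0.285) in the Atm-/- and -2.18 (-4.19 to -0.17, adjusted p = 0.0816) in the Rag2c/c p53-/- lymphomas. Klf2 passed the test in the Rag2c/c p53-/- lymphomas without their replicate 3 (-2.69, adjusted p = 0.0311), with the Atm-/- libraries left out of the fit (-2.18, adjusted p = 0.0323), and with libraries weighted by their variability (-2.26, adjusted p = 0.011). The same weights gave -1.79 (adjusted p = 0.0197) in the Atm-/- lymphomas. Over the alternatives tried, the adjusted p of Klf2 ranged from 0.0197 to 0.518 in the Atm-/- and from 0.011 to 0.279 in the Rag2c/c p53-/- lymphomas.

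Ccr7 (ENSMUSG00000037944, chr11:99144196-99155077), the receptor for CCL19 and CCL21 that guides positively selected cells to the medulla, read 2281, 1897 and 2281 in WT thymus. The Atm-/- lymphomas held 267, 87, 220, 150 and 193, and the Rag2c/c p53-/- lymphomas 53, 189, 147, 96 and 76. No lymphoma came near a WT value, and the lymphoma groups overlapped with each other. Ccr7 had a log2 fold change of -3.64 (SE 0.42, limma adjusted p = 2.97e-05) in the Atm-/- and -4.39 (SE 0.42, adjusted p = 1.3e-05) in the Rag2c/c p53-/- lymphomas.

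Ccr9 (ENSMUSG00000029530, chr9:123678439-123783457), the receptor for CCL25 of thymic epithelium and gut, read 15332, 20719 and 15876 in WT thymus. It read 8660, 8379, 12456, 3444 and 15266 in the Atm-/- lymphomas and 14490, 4526, 5314, 2865 and 7935 in the Rag2c/c p53-/- lymphomas. All lymphomas lay below all WT thymuses, although Atm-/- replicate 5 missed the lowest WT value narrowly and Rag2c/c p53-/- replicate 1 came close to it. The log2 fold change was -0.99 (95% interval -2.05 to 0.06, limma adjusted p = 0.115) in the Atm-/- lymphomas, short of a call, and -1.51 (SE 0.49, adjusted p = 0.0276) in the Rag2c/c p53-/- lymphomas. The latter call was lost without Rag2c/c p53-/- replicate 2 (-1.41, adjusted p = 0.0529) or replicate 4 (-1.24, adjusted p = 0.0594), and without WT replicate 1 (-1.59, adjusted p = 0.0655), 2 (-1.37, adjusted p = 0.0969) or 3 (-1.56, adjusted p = 0.0709). The adjusted p ranged from 0.00307 to 0.149 over the alternatives tried. On the opposite strand, 1932 exon bases of Ccr9 are shared with the gene Gm17021, which had at most 2 normalized counts in a library. Another 22 are shared with Slc6a20a on that strand, at most 350 in a library, and 269 with Gm17200 on the strand of Ccr9, at most 7. Lztfl1 lies within Ccr9 on the opposite strand, with no shared exon bases and a mean of 1740 normalized counts over the 13 libraries.

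Ccr4 (ENSMUSG00000047898, chr9:114490316-114496544), which binds CCL17 and CCL22 and is also prominent on regulatory T cells, read 1537, 1439 and 1686 in WT thymus. It read 1145, 153, 414, 485 and 791 in the Atm-/- lymphomas and 494, 1196, 1427, 985 and 1434 in the Rag2c/c p53-/- lymphomas. Neither lymphoma group overlapped with WT thymus, but Rag2c/c p53-/- replicates 3 and 5 came within a few counts of WT replicate 2, and replicate 1 was the lowest of that group. The log2 fold change was -1.66 (SE 0.52, limma adjusted p = 0.0186) in the Atm-/- lymphomas and -0.58 (95% interval -1.69 to 0.53, adjusted p = 0.393) in the Rag2c/c p53-/- lymphomas. The Atm-/- call was lost without WT replicate 1 (-1.67, adjusted p = 0.0556) or replicate 3 (-1.60, adjusted p = 0.0653), in a range of 0.00077 to 0.0653 over the alternatives tried.

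Cxcr4 (ENSMUSG00000045382, chr1:128588199-128592293), the receptor for CXCL12 that retains early thymocytes in the cortex, was the only one of the 9 genes with a higher mean in the lymphomas. It read 3747, 5292 and 3975 in WT thymus, 5186, 6408, 7359, 5934 and 7027 in the Atm-/- lymphomas, and 6217, 6670, 4957, 7526 and 5257 in the Rag2c/c p53-/- lymphomas. WT replicate 2, a shallow library, reached into the range of both lymphoma groups, and the other WT libraries lay below every lymphoma. The log2 fold change was 0.56 (SE 0.17, limma adjusted p = 0.0188) in the Atm-/- and 0.50 (SE 0.17, adjusted p = 0.0385) in the Rag2c/c p53-/- lymphomas, both under the fold required for a call. Over the alternatives tried the adjusted p ranged from 8.31e-05 to 0.0985 and from 0.00239 to 0.168. The adjusted p was above 0.05 in both groups without WT replicate 1 (0.47 and 0.40, adjusted p = 0.0985 and 0.168) or 3 (0.51 and 0.44, adjusted p = 0.0828 and 0.143). In the Rag2c/c p53-/- lymphomas it was above 0.05 also without their replicate 1 (0.49, adjusted p = 0.056), 2 (0.46, adjusted p = 0.0642) or 4 (0.42, adjusted p = 0.08), with no filter (adjusted p = 0.0508), with only the 2 groups compared (adjusted p = 0.058), and without trend and robust moderation (adjusted p = 0.0616). The spread within each group was small, at 13.6% of the mean in the Atm-/- and 17.1% in the Rag2c/c p53-/- lymphomas.

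**Figure D2:**
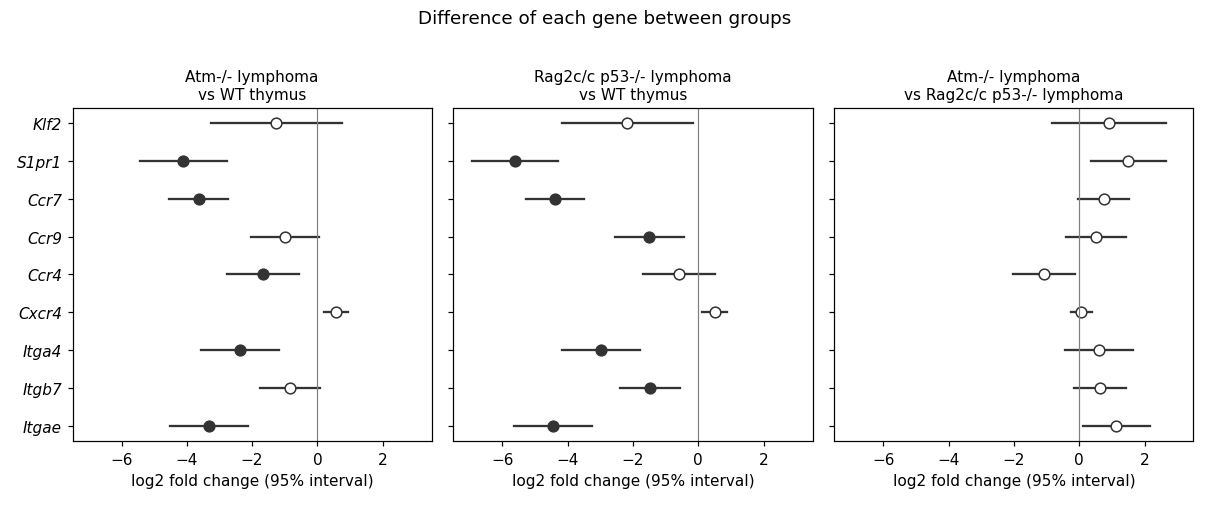
Log2 fold change of each of the 9 genes on the log2(value + 1) scale with its 95% interval from limma, for both lymphoma groups against WT thymus and for the lymphoma groups against each other; filled points were called. S1pr1 lies at -4.11 and -5.61 and Cxcr4 at 0.56 and 0.50 against WT thymus, and no point is filled in the comparison of the lymphoma groups.

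Among the integrin genes, Itga4 (ENSMUSG00000027009, chr2:79255426-79333123) encodes the α4 chain, a partner of the β1 and β7 chains. It read 7641, 7351 and 8093 in WT thymus, 4081, 1343, 603, 1980 and 1096 in the Atm-/- lymphomas, and 1061, 365, 2075, 777 and 1400 in the Rag2c/c p53-/- lymphomas. WT thymus and the lymphomas were well separated, and within the Atm-/- lymphomas replicate 1 stood above the rest. For Itga4 the log2 fold change was -2.37 (SE 0.56, limma adjusted p = 0.00419) in the Atm-/- and -2.98 (SE 0.56, adjusted p = 0.0013) in the Rag2c/c p53-/- lymphomas. The annotation places 1124 exon bases of Cerkl on the opposite strand of Itga4 exons, and the strand setting of the read counting is not given in the sources used here. Cerkl itself reached at most 100 normalized counts in a library.

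Itgae (ENSMUSG00000005947, chr11:73090583-73147446) encodes the αE chain, CD103, which pairs with β7 and binds E-cadherin. WT thymus held 1366, 1163 and 1419, the Atm-/- lymphomas 220, 381, 70, 102 and 64, and the Rag2c/c p53-/- lymphomas 36, 44, 64, 131 and 54. Every lymphoma was below every WT thymus, and the highest values within the lymphoma groups were those of Atm-/- replicate 2 and Rag2c/c p53-/- replicate 4. Itgae had a log2 fold change of -3.31 (SE 0.56, limma adjusted p = 0.000429) in the Atm-/- and -4.45 (SE 0.56, adjusted p = 8.66e-05) in the Rag2c/c p53-/- lymphomas. An intron of Itgae holds Gsg2 on the opposite strand, with no shared exon bases and a mean of 980 normalized counts over the 13 libraries.

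Itgb7 (ENSMUSG00000001281, chr15:102215995-102231935) encodes the β7 chain, which is shared by both heterodimers. It read 2754, 2950 and 2705 in WT thymus, 1617, 2692, 1214, 707 and 2562 in the Atm-/- lymphomas, and 503, 1270, 1760, 1112 and 855 in the Rag2c/c p53-/- lymphomas. Atm-/- replicates 2 and 5 stayed just below the WT range, whereas each Rag2c/c p53-/- lymphoma was clearly under it. The log2 fold change was -0.83 (95% interval -1.75 to 0.09, limma adjusted p = 0.127) in the Atm-/- lymphomas, not called, and -1.47 (SE 0.43, adjusted p = 0.0165) in the Rag2c/c p53-/- lymphomas. The latter call was lost without WT replicate 1 (-1.48, adjusted p = 0.0527), 2 (-1.43, adjusted p = 0.0567) or 3 (-1.49, adjusted p = 0.0521), in a range of 0.000383 to 0.0617 over the alternatives tried. Itgb1, the other partner of α4, lay at 4690, 4580 and 4758 in WT thymus and between 1185 and 4289 in the lymphomas, and was not called in either group.

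Directly compared, the lymphoma groups did not differ in any of the 9 genes by limma: 0 were called higher, against 3.51% of all genes tested, and 0 lower, against 4.33%. At an unadjusted p under 0.05, S1pr1 and Itgae were higher and Ccr4 was lower in the Atm-/- lymphomas. S1pr1 had a log2 fold change of 1.504 (95% interval 0.35 to 2.66, adjusted p = 0.088), with Atm-/- replicates 1, 2 and 4 above each Rag2c/c p53-/- lymphoma and replicates 3 and 5 among them. It was called without Atm-/- replicate 3 (1.81, adjusted p = 0.0457) or replicate 5 (1.88, adjusted p = 0.0347), and the adjusted p ranged from 0.0347 to 0.194 over the alternatives tried. Itgae stood at 1.13 (0.10 to 2.17, adjusted p = 0.149) and Ccr4 at -1.08 (-2.04 to -0.12, adjusted p = 0.139). For Ccr7 the difference of 0.75 (-0.02 to 1.52, adjusted p = 0.204) was called only when libraries were weighted by their variability (1.12, adjusted p = 0.0174). Thus the calls of Ccr4 in 1 lymphoma group and of Ccr9 and Itgb7 in the other were not accompanied by a called difference between the groups.

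Levels of different genes were compared per kilobase of exon. In WT thymus the order was Cxcr4 at 2399 ± 461 normalized counts per kilobase (SD, n = 3), Ccr9 at 1687 ± 289, Ccr7 at 1088 ± 112, Itgb7 at 1012 ± 46.8, Klf2 at 865 ± 179, Itga4 at 550 ± 26.8, Ccr4 at 502 ± 40.2, S1pr1 at 444 ± 19.9 and Itgae at 287 ± 29.5. Neighbours whose intervals of the mean ± 1 SD overlapped were Cxcr4 and Ccr9, then Ccr7, Itgb7 and Klf2, then Itga4, Ccr4 and S1pr1. In the Atm-/- lymphomas Cxcr4, at 3530 ± 479 per kilobase (n = 5), stood apart from Ccr9, at 940 ± 437. In that group Ccr7 followed Ccr4 and Itga4 at 92.7 ± 34.7 per kilobase, and Itgae at 36.5 ± 29.5 and S1pr1 at 35.4 ± 29.4 came last. The Rag2c/c p53-/- lymphomas had Cxcr4 at 3388 ± 579 per kilobase, Ccr9 at 685 ± 444 and, at the other end, Ccr7 at 56.7 ± 27.9, Itgae at 14.4 ± 8.28 and S1pr1 at 9.26 ± 3.96 (n = 5). Cxcr4 was the highest of the 9 genes per kilobase in all 3 groups, except that Ccr9 passed it in WT thymus, at 3331 per kilobase, when the length of the longest protein-coding transcript, 5.2 kb in place of 10.3 kb for Ccr9, was used. This length was chosen after the data had been seen.

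Variation among libraries of the same group was described by Pearson's r on log2 values centred within each group, over 13 libraries and 36 pairs of the 9 genes, with no test. Klf2 and S1pr1 had the highest r, 0.81 (Spearman's rho 0.68), and r was 0.70 without the 2 libraries farthest from the median of Klf2. The Atm-/- lymphomas with high Klf2, replicates 1, 2 and 4, had the highest S1pr1 of their group, and Rag2c/c p53-/- replicate 3 had the highest value of both genes in its group. S1pr1 was nevertheless low in all of these libraries: Rag2c/c p53-/- replicate 3 held 1451 normalized counts of Klf2, within the WT range, and 49 of S1pr1. S1pr1 also varied with Itgae (r = 0.78, rho 0.71, and 0.72 without the 2 libraries farthest from the median of S1pr1). Itga4 and Cxcr4 varied in opposite directions (r = -0.75, rho -0.81, and -0.58 without the 2 libraries farthest from the median of Cxcr4). The shallower Rag2c/c p53-/- replicates 2 and 4 had the highest Cxcr4 (6670 and 7526) and the lowest Itga4 (365 and 777) of their group. Shallow WT replicate 2 likewise had the highest Cxcr4 (5292) and the lowest Itga4 (7351) of its group. Atm-/- replicate 5, a deeper library, held 7027 of Cxcr4 and 1096 of Itga4. The part of depth in this relation was not tested. The r of 0.76 between Ccr7 and Ccr4 fell to 0.36 without the 2 libraries farthest from the median of Ccr7 and rests on those. The α4 and β7 genes showed no such relation, with r = -0.04.

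**Figure D3:**
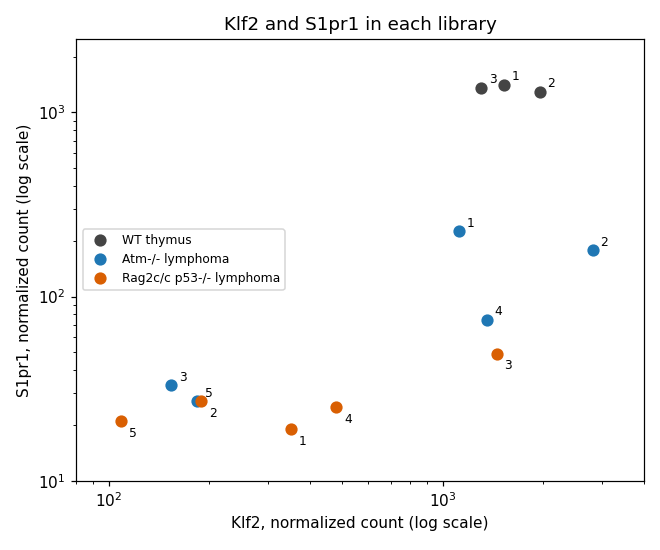
Normalized counts of S1pr1 against those of Klf2 (both axes log scale), with 1 point per library numbered by replicate, for 3 WT thymuses, 5 Atm-/- lymphomas and 5 Rag2c/c p53-/- lymphomas. Atm-/- replicates 1, 2 and 4 have Klf2 of 1121 to 2816 with S1pr1 of 75 to 226, below the 1286 to 1406 of WT thymus.

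Of 10759 other genes that were tested, averaged 100 normalized counts or more and had a symbol of their own, those whose centred values followed Klf2 most closely were Vangl2 (r = 0.96), Il2ra (r = 0.96) and Shisa5 (r = 0.94), over 13 libraries. Il2ra, the CD25 chain of the interleukin 2 receptor, read 4204, 17248, 50, 9640 and 93 in the Atm-/- lymphomas, 234, 138, 1023, 521 and 19 in the Rag2c/c p53-/- lymphomas, and 3662, 3375 and 3597 in WT thymus. Its order among the lymphomas of each group was that of Klf2. S1pr1 was followed most closely by Notch1 (r = 0.94), Cdh23 (r = 0.91) and Cep89 (r = 0.90). Notch1, the receptor that drives early T cell commitment, read 45260, 62925, 5365, 28906 and 5481 in the Atm-/- lymphomas, 11569, 11902, 26815, 16700 and 15039 in the Rag2c/c p53-/- lymphomas, and 9029, 10454 and 10854 in WT thymus. Atm-/- replicates 1, 2 and 4, high in Klf2, were the highest in Il2ra and Notch1 as well. These genes were picked for their r with Klf2 and S1pr1 in the same libraries, so this is no separate result.

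The closest genes to Ccr9 included Plxnd1 (r = 0.95) and Llgl1 (r = 0.94), and those to Ccr7 were Gin1 (r = 0.92), Sv2a (r = 0.92) and Scfd1 (r = 0.91). Plxnd1, a semaphorin receptor of thymocytes, read 12146, 15041 and 13217 in WT thymus, 1822, 1628, 3313, 852 and 3649 in the Atm-/- lymphomas, and 12983, 5775, 5400, 1743 and 7574 in the Rag2c/c p53-/- lymphomas. Its highest library among the Rag2c/c p53-/- lymphomas, replicate 1, and its lowest, replicate 4, were those of Ccr9, the gene it was picked to follow. Ccr4 was nearest to Soat2 (r = 0.95), Ccdc14 (r = 0.93) and Tma16 (r = 0.92), and Cxcr4 to Clptm1 (r = 0.93), Calm3 (r = 0.92) and Ctbp1 (r = 0.91). For Itga4 the nearest were Fam117b (r = 0.96), 4930523C07Rik (r = 0.95) and Cdk5rap2 (r = 0.93), for Itgb7 Glipr1 (r = 0.91), Ccdc64 (r = 0.91) and Zfp951 (r = 0.90), and for Itgae Oat (r = 0.96), Sh2d1a (r = 0.89) and Tmem50b (r = 0.89).

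The list of egress control held 17 genes, of which 16 were tested. In the Atm-/- lymphomas 7 were called lower by limma, and 0 were called higher in either lymphoma group. Cd69, whose product binds S1PR1 and keeps it inside the cell, read 1602, 1501 and 1555 in WT thymus, 60, 144, 26, 207 and 69 in the Atm-/- lymphomas, and 88, 44, 238, 50 and 40 in the Rag2c/c p53-/- lymphomas. It was thus low in every lymphoma, at a log2 fold change of -4.26 (adjusted p = 0.000221) and -4.42 (adjusted p = 0.000258). S1pr4, a related receptor of lymphocytes, lay at -1.77 (adjusted p = 0.00105) and -2.23 (adjusted p = 0.000309) on the log2 scale, and Rgs1, which dampens signals of such receptors, at -2.80 (adjusted p = 0.00172) and -2.31 (adjusted p = 0.00703). The factor gene Klf6 was lower as well, with -1.79 (adjusted p = 0.00353) in the Atm-/- and -1.99 (adjusted p = 0.00239) in the Rag2c/c p53-/- lymphomas. At an unadjusted p under 0.05, 1 gene of the list was higher in the Atm-/- and 0 in the Rag2c/c p53-/- lymphomas. Coro1a, with the highest mean of the list in WT thymus, and Gnai2, with the highest in both lymphoma groups, were called in no comparison.

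Il7r, the interleukin 7 receptor chain, read 7078, 3387, 2860, 6581 and 5901 in the Atm-/- lymphomas, 1967, 426, 1512, 188 and 1790 in the Rag2c/c p53-/- lymphomas, and 2206, 1819 and 2398 in WT thymus. Each Atm-/- lymphoma was above each Rag2c/c p53-/- lymphoma and each WT thymus. The difference between the lymphoma groups was called, at a log2 fold change of 2.52 (SE 0.56, limma adjusted p = 0.0114), and neither group was called against WT thymus.

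Of the genes that make, export or remove sphingosine 1-phosphate, 7 of 8 were tested. In each lymphoma group 3 were called higher, Ppap2a, Ppap2b and Ppap2c, which encode lipid phosphate phosphatases, and 1 lower, the exporter gene Spns2. The largest of these changes was that of Ppap2b, at 1.97 (adjusted p = 0.0402) in the Atm-/- and 2.55 (adjusted p = 0.0146) in the Rag2c/c p53-/- lymphomas. Spns2 was at 38, 55 and 52 in WT thymus and at 6 to 34 in the lymphomas. The gene with the highest mean over all libraries, Sgpp1, was not called. Between the lymphoma groups limma called 0 of the list, with 1 higher and 0 lower in the Atm-/- lymphomas at an unadjusted p under 0.05.

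Of 10 genes for ligands of the receptors and integrins among the 9 genes, 8 were tested, and Ccl19 and Madcam1 stayed at or below 10 in all libraries. Ccl22, a ligand of CCR4, read 670, 452 and 699 in WT thymus, 69, 2, 59, 4 and 40 in the Atm-/- lymphomas, and 13, 14, 51, 15 and 51 in the Rag2c/c p53-/- lymphomas. It was the only ligand gene called lower in the Atm-/- lymphomas (-4.96, limma adjusted p = 0.00128), and was called lower in the Rag2c/c p53-/- lymphomas too (-4.60, adjusted p = 0.00272). Cxcl12, the ligand of CXCR4, read 97, 68 and 91 in WT thymus, 384, 64, 8, 194 and 244 in the Atm-/- lymphomas, and 16, 3, 15, 1 and 7 in the Rag2c/c p53-/- lymphomas. Against WT thymus it was lower in the Rag2c/c p53-/- lymphomas (-3.60, adjusted p = 0.0163) and higher in the Atm-/- than in the Rag2c/c p53-/- lymphomas (3.85, adjusted p = 0.0154), with Atm-/- replicate 3 within the range of the latter. Fn1, the fibronectin gene, was higher in the Atm-/- lymphomas (2.18, adjusted p = 0.0186), although their replicate 2, at 194, lay among the WT values of 166, 305 and 275. Fn1 had the highest mean of the list in the Atm-/- lymphomas, and Vcam1 had it in both other groups. Ccl25 and Vcam1 were called in no comparison.

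The other chemokine and chemoattractant receptors numbered 20, with 17 tested. In the Atm-/- lymphomas 8 were called lower and 0 higher by limma, and in the Rag2c/c p53-/- lymphomas 10 lower and 1 higher, with median log2 fold changes of -1.46 and -2.06. At an unadjusted p under 0.05, 0 were higher in the Atm-/- lymphomas. Gpr183, the oxysterol receptor EBI2, read 440, 299 and 477 in WT thymus, 30, 21, 17, 15 and 21 in the Atm-/- lymphomas, and 10, 27, 126, 38 and 39 in the Rag2c/c p53-/- lymphomas. Ccr6 fell from 108, 88 and 121 in WT thymus to at most 9 in the lymphomas, and Ccr8 from 341, 344 and 353 to at most 128. Ccr3 was lower in both groups (-3.61, adjusted p = 0.0112, and -2.81, adjusted p = 0.0429). Cxcr6 was called lower in the Rag2c/c p53-/- lymphomas (-3.90, adjusted p = 0.00642) and not in the Atm-/- lymphomas (-1.67, adjusted p = 0.169), with no called difference between them (2.24, adjusted p = 0.0994). Cxcr3, the receptor for interferon-induced chemokines, went against this: it read 129, 123 and 119 in WT thymus, 36, 46, 119, 21 and 18 in the Atm-/- lymphomas, and 273, 385, 240, 272 and 409 in the Rag2c/c p53-/- lymphomas. It was lower in the former (-1.69, adjusted p = 0.0135), higher in the latter (1.31, adjusted p = 0.0489), and differed between the lymphoma groups (-3.00, adjusted p = 0.000598). Besides Cxcr3, Cx3cr1 and Ackr3 were called between the lymphoma groups, both higher in the Atm-/- lymphomas. Ptger4, with the highest counts of the list, was called lower in the Atm-/- lymphomas.

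Among 23 other integrin genes, 22 of them tested, 8 were called lower in each lymphoma group, and 3 were called higher in the Atm-/- and 1 in the Rag2c/c p53-/- lymphomas. Itgb3 read 1659, 1400 and 1768 in WT thymus, 179, 89, 133, 73 and 266 in the Atm-/- lymphomas, and 116, 138, 441, 179 and 74 in the Rag2c/c p53-/- lymphomas. Itga9, whose product pairs with the β1 chain and is related to α4, moved the other way, from 124, 101 and 139 in WT thymus to 2770, 5488, 405, 6065 and 854 in the Atm-/- and 451, 236, 1702, 1212 and 369 in the Rag2c/c p53-/- lymphomas. Every lymphoma was above every WT thymus in Itga9, at log2 fold changes of 4.04 (SE 0.84, limma adjusted p = 0.00179) and 2.32 (SE 0.84, adjusted p = 0.043), and the highest Atm-/- replicates were 1, 2 and 4, as for Klf2. Itgb6 was called higher in the Atm-/- lymphomas (4.25, adjusted p = 0.00631) and not in the Rag2c/c p53-/- lymphomas (2.29, adjusted p = 0.11), with no called difference between them (1.96, adjusted p = 0.2). Itgb8 (-3.64, adjusted p = 0.00178, and -3.56, adjusted p = 0.00271), Itga2 (-2.83, adjusted p = 0.0176, and -2.68, adjusted p = 0.0269) and Itga8 (-2.03, adjusted p = 0.023, and -2.66, adjusted p = 0.00665) were lower in both. Itgal, the α chain of LFA-1 and the gene with the highest counts of the list, was called lower in the Rag2c/c p53-/- lymphomas (-1.24, adjusted p = 0.000463) and lay at -0.89 (adjusted p = 0.00313) in the Atm-/- lymphomas. Between the lymphoma groups, Itga6 and Itgad were called lower in the Atm-/- lymphomas.

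Genes of integrin activation, such as those of talin and kindlin-3, were mostly not called: of 9 tested, Rasgrp1 alone was called, lower in both lymphoma groups (-1.97, adjusted p = 0.00466, and -2.13, adjusted p = 0.00373). Tln1, with the highest mean of that list, was not. Of 11 genes for selectin ligands and other adhesion molecules, 3 were called lower in the Atm-/- and 5 in the Rag2c/c p53-/- lymphomas, with 0 higher by limma in either, also at an unadjusted p under 0.05. Cd34 fell from 108, 120 and 119 in WT thymus to 1 to 51 in the lymphomas, and L1cam was lower in both groups (-2.58, adjusted p = 0.000105, and -1.89, adjusted p = 0.00127). Cd99l2 was lower in both as well (-1.02, adjusted p = 0.0456, and -1.08, adjusted p = 0.0428), and Spn was called in the Rag2c/c p53-/- lymphomas (-1.18, adjusted p = 0.000856) and lay under the fold threshold in the Atm-/- lymphomas (-0.75, adjusted p = 0.0106). Selplg, the P-selectin ligand gene with the highest mean of the list, was not called, and Gcnt1 was called higher in the Atm-/- than in the Rag2c/c p53-/- lymphomas (1.70, adjusted p = 0.0115).

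Markers of the cells a thymus can hold were read beside these genes. Of 7 genes of the T lineage, 1 was called lower in each lymphoma group, Bcl11b in the Atm-/- and Ptprc in the Rag2c/c p53-/- lymphomas. Their summed level was 102415 to 150609 in WT thymus, 78551 to 116485 in the Atm-/- and 75192 to 124950 in the Rag2c/c p53-/- lymphomas, with Ptprc the highest on average in WT thymus and Thy1 in both lymphoma groups. All libraries thus held RNA of T lineage cells. None of 6 genes of dividing cells was called by limma, where at an unadjusted p under 0.05, 4 were higher in the Atm-/- and 3 in the Rag2c/c p53-/- lymphomas, and their sums were 42228 to 49774, 37837 to 73493 and 49251 to 57452 in the same order.

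Markers of mature single positive T cells moved with the receptor genes. Slfn1, which is induced as thymocytes mature, read 1282, 1264 and 1301 in WT thymus and at most 91 in any lymphoma. H2-Q7, a class I gene of mature cells, read 1399, 1407 and 1366 in WT thymus, 191, 37, 115, 139 and 155 in the Atm-/- lymphomas, and less in each Rag2c/c p53-/- lymphoma than in any WT thymus. Both were called lower in the Atm-/- lymphomas, at -4.99 (limma adjusted p = 2.08e-06) and -3.62 (adjusted p = 7.86e-05), and in the Rag2c/c p53-/- lymphomas, at -4.69 (adjusted p = 7.36e-06) and -3.25 (adjusted p = 0.000258). The share of mature cells in a library was not measured, and its part in the lower S1pr1, Ccr7 and Itgae was not tested.

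Of 9 genes of double positive thymocytes, 7 were called lower in the Atm-/- and 3 in the Rag2c/c p53-/- lymphomas. The sums, led on average by Rag1 in WT thymus, Cd4 in the Atm-/- and Cd8a in the Rag2c/c p53-/- lymphomas, were 133759, 198729 and 137627 in WT thymus, 31938, 75520, 54857, 36856 and 38862 in the Atm-/- lymphomas, and 82668, 84520, 79710, 63499 and 74785 in the Rag2c/c p53-/- lymphomas. Immature thymocyte genes, 6 in all and led on average by Il2ra in WT thymus and Dtx1 in both lymphoma groups, summed to 9110, 8514 and 9431 in WT thymus, 21735, 42633, 3542, 30708 and 9129 in the Atm-/- lymphomas, and 6999, 4552, 7567, 11719 and 5493 in the Rag2c/c p53-/- lymphomas. The Atm-/- lymphomas high in Klf2, replicates 1, 2 and 4, were the highest in this sum, which contains Il2ra, a gene already picked for its r with Klf2. Dtx1 and Hes1 were also highest in these replicates, but the other genes of the list were not. Kit read 327, 9, 16, 11 and 648 and Cd44 880, 100, 261, 164 and 1575 in the Atm-/- lymphomas, both highest in replicate 5. Il7r was higher in replicate 5 than in replicate 2. Of that list Kit was called lower in the Atm-/- lymphomas, and no gene was called in the Rag2c/c p53-/- lymphomas. Its part in the spread of Klf2 was not tested.

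Regulatory T cell genes, which matter for Ccr4 and Itgae, were called lower for 3 of 6 in the Atm-/- and 4 of 6 in the Rag2c/c p53-/- lymphomas. Foxp3, the defining factor, read 236, 240 and 240 in WT thymus, 14, 9, 2, 0 and 9 in the Atm-/- lymphomas, and 10, 7, 15, 1 and 6 in the Rag2c/c p53-/- lymphomas. The summed level, led on average by Il2ra in WT thymus and the Atm-/- lymphomas and by Ikzf2 in the Rag2c/c p53-/- lymphomas, was 9396, 8069 and 9420 in WT thymus, 7208, 21708, 1108, 12307 and 1677 in the Atm-/- lymphomas, and 1235, 1834, 4371, 2260 and 1882 in the Rag2c/c p53-/- lymphomas. The part of regulatory T cells in the values of Ccr4 and Itgae was not tested.

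Cytotoxic and innate lymphocyte genes, another source of Itgae, were lower for 6 of 8 in each lymphoma group, with Nkg7 at 703, 689 and 643 in WT thymus and at most 24 in the lymphomas. Gzma, the gene with the highest counts, was called higher in both and Tbx21 in the Rag2c/c p53-/- lymphomas, and the sum was 2531, 2502 and 2366 in WT thymus, 6324, 3930, 7617, 5319 and 6782 in the Atm-/- lymphomas, and 3155, 10436, 2818, 5998 and 4066 in the Rag2c/c p53-/- lymphomas. Dendritic cell genes, since such cells carry CCR7 and CD103, were lower for 3 of 6 and 4 of 6. Their sum, led by Itgax, was 860, 658 and 1088 in WT thymus, 532, 221, 340, 278 and 547 in the Atm-/- lymphomas, and 266, 175, 643, 234 and 501 in the Rag2c/c p53-/- lymphomas. B cell genes were lower for 5 of 6 and 6 of 6, with a sum, led on average by Cd79a in the Atm-/- lymphomas and by Cd79b in both other groups, of 1770, 1446 and 1677 in WT thymus, 213, 272, 239, 103 and 197 in the Atm-/- lymphomas, and 283, 506, 143, 92 and 168 in the Rag2c/c p53-/- lymphomas. The part of these cells in the lower Ccr7, Itga4 and Itgae was not tested.

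Macrophage genes were higher for 4 of 7 in the Atm-/- and 2 of 7 in the Rag2c/c p53-/- lymphomas. Their sum, led by Lyz2, was 4785, 4214 and 4824 in WT thymus, 10634, 9024, 10162, 15403 and 11865 in the Atm-/- lymphomas, and 6948, 5525, 7237, 11272 and 8684 in the Rag2c/c p53-/- lymphomas. Fibroblast genes were higher for 5 of 6 in both, with a sum, led by Col1a2 in the Atm-/- lymphomas and by Pdgfrb in both other groups, of 403, 423 and 442 in WT thymus, 8822, 4137, 8216, 17444 and 11114 in the Atm-/- lymphomas, and 2534, 2054, 3393, 2207 and 3905 in the Rag2c/c p53-/- lymphomas. Thymic epithelium, the source of CCL25, had 3 of 7 genes called lower in the Atm-/- and 4 of 7 in the Rag2c/c p53-/- lymphomas. Its defining gene Psmb11 read 91, 36 and 122 in WT thymus and 0 in all lymphomas but Rag2c/c p53-/- replicate 4, which held 1. The epithelial sum, led on average by Ly75, was 1830, 1303 and 1872 in WT thymus, 539 to 1010 in the Atm-/- and 602 to 1469 in the Rag2c/c p53-/- lymphomas. The part of stromal cells in the values of the 9 genes was not tested.

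Endothelium also expresses S1pr1 and Klf2. Its 8 markers, led on average by Cdh5 in WT thymus, Flt1 in the Atm-/- and Plvap in the Rag2c/c p53-/- lymphomas, summed to 93, 51 and 120 in WT thymus, 134, 13, 47, 398 and 148 in the Atm-/- lymphomas, and 178, 355, 199, 170 and 471 in the Rag2c/c p53-/- lymphomas. The defining gene Cdh5 read 35, 19 and 31 in WT thymus, at most 60 in the Atm-/- and at most 7 in the Rag2c/c p53-/- lymphomas, and Tek was at most 8 in all libraries. Of 4 endothelial genes tested, 0 were called by limma in the Atm-/- lymphomas, with 0 higher and 1 lower at an unadjusted p under 0.05, and 3 in the Rag2c/c p53-/- lymphomas, Plvap higher and Cdh5 and Kdr lower. Erythroid genes, led by Hbb-bs, summed to 1042 to 2333 in WT thymus, 933 to 6778 in the Atm-/- and 835 to 4694 in the Rag2c/c p53-/- lymphomas, with Klf1 alone called, higher in both.

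Upstream sequence was held for 6 of the 9 genes: Klf2, Ccr9, Ccr4, Cxcr4, Itga4 and Itgb7, and not for S1pr1, Ccr7 and Itgae. The 250 bases before the RefSeq start of each were searched on both strands for exact matches to 4 motifs: CACCC for KLF factors, GTAAACA for FOXO factors, TGTGGT for RUNX factors and CCGGAA for ETS factors. For Ccr9 this start lies inside the gene as positioned above, far past its first base, and for Klf2 it lies shortly past it. Of 32851 promoters, 52.0% held CACCC or its reverse complement, 3.17% the FOXO, 14.0% the RUNX and 12.03% the ETS motif. CACCC was matched 4 times each before Itga4 and Itgb7 and 1 time each before Klf2, Ccr9, Ccr4 and Cxcr4. The RUNX motif was matched 1 time, before Itga4, where it overlaps a CACCC, and the FOXO and ETS letters were in none of the 6 windows. The windows of Itga4 and Itgb7, the genes of the α4 and β7 chains, are shown because they held the most matches, with matches in capitals. Sequences are those of RefSeq for GRCm38.p6, at chr2:79255176-79255425 on the plus strand for Itga4 and chr15:102231936-102232185 on the minus strand for Itgb7, written 5′ to 3′. A match is a description of letters and not a site of binding.
Itga4: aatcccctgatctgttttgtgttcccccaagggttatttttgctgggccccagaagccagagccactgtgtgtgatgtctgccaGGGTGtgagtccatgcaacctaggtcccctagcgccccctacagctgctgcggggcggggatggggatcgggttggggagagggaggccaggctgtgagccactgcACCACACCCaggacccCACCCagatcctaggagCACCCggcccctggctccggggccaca
Itgb7: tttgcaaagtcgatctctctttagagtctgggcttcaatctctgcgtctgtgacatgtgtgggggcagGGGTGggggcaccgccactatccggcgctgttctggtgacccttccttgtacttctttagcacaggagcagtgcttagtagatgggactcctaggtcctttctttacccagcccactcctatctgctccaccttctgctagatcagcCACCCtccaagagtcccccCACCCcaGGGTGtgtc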

How the data were processed

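The deposited table gives a score for each gene and library, which the authors made by dividing read counts by a size factor and rounding. By the submitters' processing notes, reads were made with bcl2fastq 1.8.3, aligned to GRCm38 with STAR 2.4.0g1, handled with Picard and normalized with DESeq2 1.6.3. The read counter, annotation release and strand setting are not given in the sources used here. The authors' columns of fold change, log2 fold change, p and adjusted p for each lymphoma group against WT thymus were not used here.

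Genes that reached 10 in 3 or more of the 13 libraries, 15872 in all, were tested with limma 3.58.1 under R 4.3.3. Its linear model of log2(value + 1) had 1 term per group, and variances were moderated robustly along their trend with the mean. Tests were two-sided with Benjamini-Hochberg adjustment over all genes tested. Tests made for raw counts were not used, since the values are scaled and rounded. Tables and plots were made with Python 3.11.15, numpy 2.4.6, pandas 2.3.3 and matplotlib 3.10.9. Exon lengths and positions are from GENCODE vM21.

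The 9 genes and all lists were chosen with earlier results of these data known. Named genes are the 9, the genes called in each list of related genes (at most the 4 with the largest change per comparison), the gene with the highest counts of each list, and the 3 genes with the highest r with each of the 9. Not every gene so chosen is described. Ccl19, Ccl25, Madcam1, Vcam1, Itgb1, the genes that overlap Ccr9, Itga4 and Itgae, and the markers named singly were chosen after their values were seen.

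Alternatives tried were recomputed size factors, equal column totals, a pseudocount of 5, no filter, a filter at 50, a fit of only the 2 groups compared, no trend or robust moderation, library weights, no fold threshold, and each library left out in turn. Leaving out both shallowest libraries, and the length of the longest protein-coding transcript, were chosen after the data had been seen.

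With 3 controls from 1 strain and another series, differences between lymphomas and WT thymus hold strain and series as well as tumor. The libraries are bulk RNA, and no cell counts are given. RNA levels do not give receptor protein on the surface, and CD69 and ligand act on S1PR1 after transcription. In the shallow libraries of the lymphomas, low values such as those of S1pr1 and Itgae rest on few reads. No paired analysis was possible because each library is from a different mouse.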

Additional observations from a re-analysis of the deposited data

How the results depend on the processing

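The counts of the 9 genes called and their fold changes were recomputed under 23 alternatives, of which 22 apply to fold changes. Trend and robust moderation were dropped together, and 1 alternative left out 2 libraries. Of the fold changes, 573 kept their direction and their side of the threshold, 7 passed it in addition, 13 no longer passed it and 1 reversed. The reversed value was that of Cxcr4 between the lymphoma groups, -0.007 without Rag2c/c p53-/- replicate 3 (adjusted p = 0.986, in a range of 0.504 to 0.986 over the alternatives), in a range of -0.007 to 0.144 with single libraries left out. The cause was not tested. Without a fold threshold, 1 gene, Cxcr4, was called higher in the Atm-/- and 1 in the Rag2c/c p53-/- lymphomas against WT thymus, which follows from the threshold. With library weights, 1 gene, Ccr7, was called higher in the Atm-/- than in the Rag2c/c p53-/- lymphomas, and the cause was not tested. With single libraries left out, that count ranged from 0 to 1, and the cause was not tested.

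The number of genes called lower in the Atm-/- lymphomas was 4 to 5 with single libraries left out and 6 with library weights. In the Rag2c/c p53-/- lymphomas it was 4 to 7 with single libraries left out. With both shallowest libraries left out, an alternative chosen after the data had been seen, it was 4 in each. S1pr1, Ccr7, Itga4 and Itgae were called lower in both groups under each alternative tried: S1pr1 lay between -4.49 and -3.74 in the Atm-/- and between -5.83 and -5.42 in the Rag2c/c p53-/- lymphomas, and Itga4 between -2.74 and -2.05 and between -3.25 and -2.63. Depth limits low values in the shallow libraries: S1pr1 in Rag2c/c p53-/- replicate 2 rests on about 8 reads.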
